A study of Mus musculus with 2 samples.

Results

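The Wnt, FGF, BMP and TGF-beta genes of the mouse hippocampus were examined in total RNA: the secreted ligands of these 4 pathways, their main receptors, and the intracellular relatives of the FGFs. Members were chosen by symbol alone, as every gene named Wnt, Fzd, Fgf, Fgfr1 to Fgfr4, Bmp, Bmpr, Tgfb1 to Tgfb3 or Tgfbr1 to Tgfbr3 with at least 1 protein-coding transcript. This gave 75 genes of 55536 annotated genes, or of 22015 protein-coding genes outside the mitochondrial genome. The tissue, labelled as layer of hippocampus, came from female B6CASTF1/J mice aged 2 months. These are hybrids between the laboratory strain C57BL/6J and the wild-derived strain CAST/EiJ. There were 2 libraries of 300 ng RNA each, both of this 1 group, so the data hold levels and their spread and no contrast of conditions. The labels number them as biological replicates 1 and 2, each with its own tissue record, but both point to 1 donor record. Separate animals are therefore not stated, and the spread between the libraries may be technical. Reads were not split by parental strain, and the mm10 reference is that of C57BL/6J.

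Most of these genes serve communication between cells, and they do so by different routes. Wnt proteins are lipid-bearing ligands that bind Frizzled receptors, often together with Lrp5 or Lrp6, and can stabilise the transcriptional partner beta-catenin. Secreted FGFs bind receptor tyrosine kinases with the help of heparan sulfate or klotho proteins and switch on the MAP kinase cascade. Intracellular FGFs are not secreted and act at voltage-gated sodium channels. BMPs and TGF-betas assemble type I and type II receptor kinases that phosphorylate SMAD proteins. In the adult hippocampus these pathways are known for their part in the neural stem cell niche of the dentate gyrus and at synapses.

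The libraries were of like depth, with 29490900 expected counts on annotated genes in the first and 30691917 in the second. Levels are given in TPM, a transcript's share of all molecules after division by its length, so they can be compared between genes. A gene was called detected at 1 TPM or more in both libraries. Markers that the tissue label calls for were present: 6 of 6 neuronal genes, 6 of 6 of dentate granule neurons and 4 of 4 of CA1 pyramidal neurons. Detection alone cannot bear out the label, as 58.0% of all nuclear protein-coding genes were detected. Genes of astrocytes (5 of 5), oligodendrocytes (4 of 4), microglia (4 of 4), endothelium (4 of 4), pericytes and smooth muscle (4 of 4), oligodendrocyte precursors (3 of 3), leptomeningeal fibroblasts (6 of 6) and blood (3 of 3) were present too. Of the choroid plexus genes 3 of 7 and of the Cajal-Retzius genes 2 of 4 were detected. In bulk tissue such as this, few cells of a type and little RNA per cell cannot be told apart.

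Of the 75 members, 42 were detected, while 58.0% of all nuclear protein-coding genes were, so the members were detected about as often as genes in general. The split by role was uneven. Detection was complete for the intracellular FGFs (4 of 4), the BMP receptors (3 of 3), the TGF-beta ligands (3 of 3) and the TGF-beta receptors (3 of 3). It reached 8 of 10 Frizzled receptors and 3 of 4 FGF receptors, but 6 of 19 Wnt ligands, 7 of 18 secreted FGFs and 5 of 11 genes named Bmp. These shares describe the families and carry no test.

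Summed over each family, the intracellular FGFs stood highest, with 168.2 TPM in replicate 1 and 169.8 in replicate 2. The FGF receptors followed at 123.4 and 125.1 TPM, and the BMP receptors at 59.03 and 60.30. The Wnt ligands summed to 45.02 and 44.83 TPM, the secreted FGFs to 37.0 and 36.2, and the Frizzled receptors to 31.3 and 33.7. The BMP ligands summed to 30.6 and 31.2 TPM, the TGF-beta receptors to 23.3 and 22.5 and the TGF-beta ligands to 20.3 and 19.4. Receptor sums thus exceeded the sums of their ligands for the FGFs, BMPs and TGF-betas, while Wnt ligands exceeded Frizzleds, in both libraries and also in a second quantification deposited for the same libraries. There the TGF-beta receptors and ligands were close in replicate 1, at 21.58 and 21.46 TPM. The contrasts hold for genes taken by symbol only. The TGF-beta receptor sum includes the co-receptor Tgfbr3, at 7.91 and 8.36 TPM, and without it would lie below the ligand sum in both libraries. The Frizzled sum leaves out Wnt co-receptors and other Wnt receptors, whose list given below summed to 76.9 and 78.3 TPM in the 2 libraries.

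**Figure D1:**
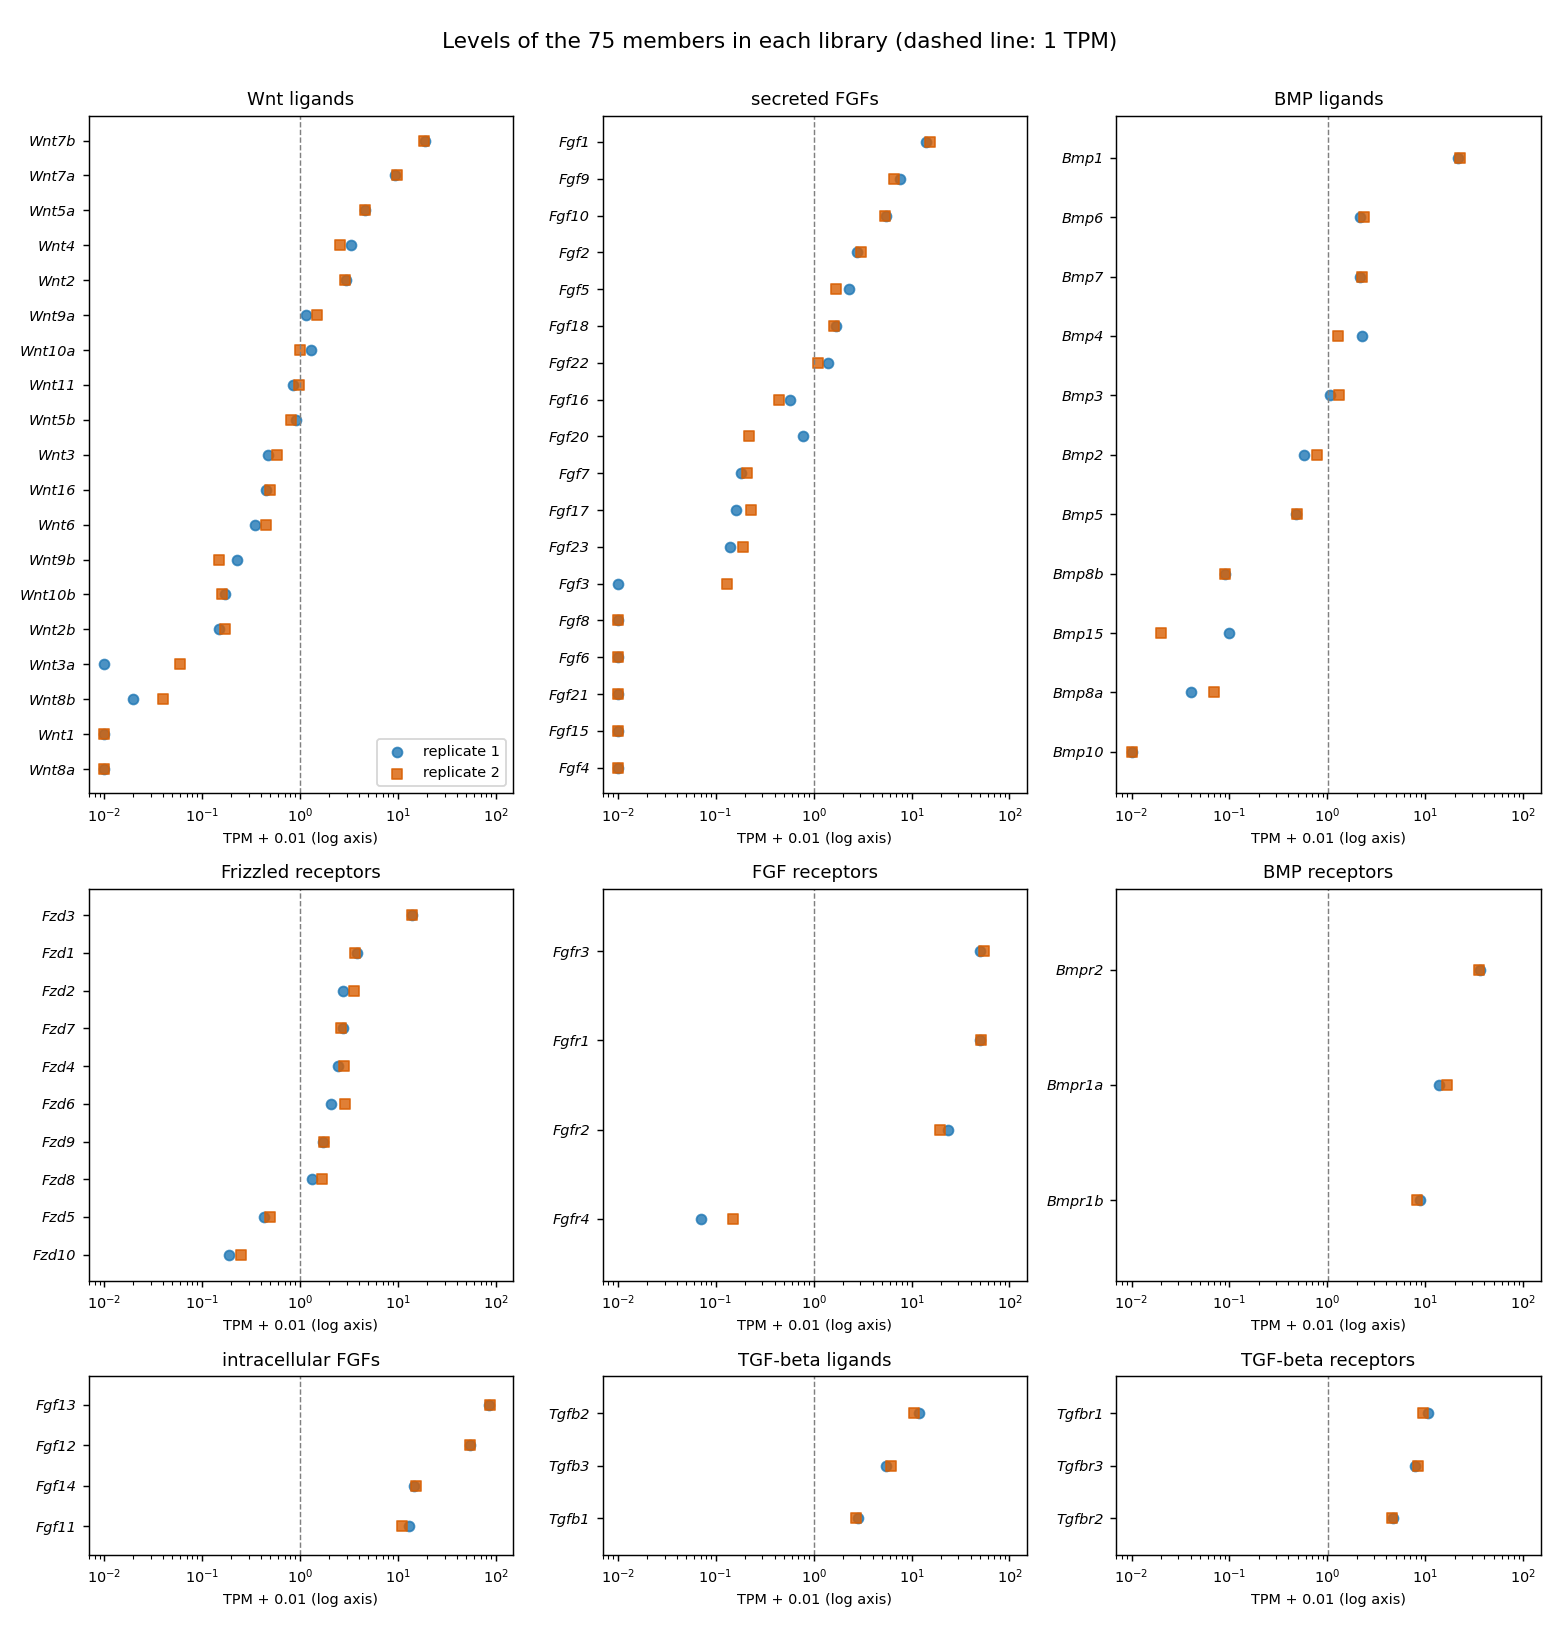
Each panel shows 1 family, each row 1 gene, and the horizontal log axis is TPM with 0.01 added so that genes listed at 0 can be drawn; circles are replicate 1, squares replicate 2 and the dashed line marks 1 TPM. All 4 intracellular FGFs lie right of the line, 13 of 19 Wnt ligands and 11 of 18 secreted FGFs do not pass it in both libraries, and the symbols of the 2 libraries mostly cover each other.

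Among the Wnt ligands Wnt7b was the highest, at 18.85 TPM in replicate 1 and 18.61 in replicate 2. It is a ligand known for brain angiogenesis and dendrite growth, and its gene lies at chr15:85535437-85582473 (mm10, - strand). Its relative Wnt7a followed at 9.30 and 9.88 TPM, and the non-canonical ligand Wnt5a at 4.66 and 4.64. Wnt4 stood at 3.31 and 2.57 TPM, Wnt2 at 2.95 and 2.87, and Wnt9a at 1.14 and 1.47. By the authors' intervals per gene, Wnt7b lay above Wnt7a, Wnt5a above Wnt4 and Wnt2 above Wnt9a in both libraries, while Wnt7a and Wnt5a, and Wnt4 and Wnt2, could not be ordered.

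The size of the gap between Wnt7a and Wnt5a rests partly on very short transcripts. The full-length coding transcript Wnt7a-201, of 3172 bases, took 341.4 of 359 reads in replicate 1 and 326.1 of 349 in replicate 2, but 5.12 and 4.69 TPM. The 293-base processed transcript Wnt7a-203 took 17.6 and 15.5 reads, which division by its small length turns into 4.18 and 3.53 TPM, and in replicate 2 the 297-base Wnt7a-202 added 7.42 reads and 1.66 TPM. Without transcripts under 400 bases Wnt7a stood at 5.12 and 4.69 TPM and Wnt5a at 3.74 and 4.25, so Wnt7a was still the higher. With them, the log2 ratio of Wnt7a to Wnt5a within each library was 1.04 ± 0.07 (SD, n = 2), a 2.06-fold difference past 3 SD. In the second quantification, which gave no reads to these short transcripts, it was 0.19 ± 0.24 and did not pass. Wnt7b over Wnt7a was 0.97 ± 0.07, or 1.95-fold, and 1.71 ± 0.08 in the second quantification.

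The other 13 Wnt ligands did not reach 1 TPM in both libraries. Wnt10a came closest, with 1.29 TPM in replicate 1 and 0.99 in replicate 2. Both Wnt10a (1.78 and 1.27 TPM) and Wnt11 (1.23 and 1.29) passed the minimum in the second quantification. Wnt11 averaged 0.910 TPM, Wnt5b 0.850, and Wnt3, known to promote neurogenesis in the adult dentate gyrus, 0.520 ± 0.0849 (SD, n = 2). Wnt3a, which drives the growth of the embryonic hippocampus, had 0 counts in replicate 1 and 3 in replicate 2. Wnt1 and Wnt8a had 0 counts in both, so a level of up to 0.102 CPM (counts per library brought to a common total) in replicate 1 and 0.0977 CPM in the other library is allowed, the worth of 3 counts and for counting error only.

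Of the Frizzled receptors Fzd3, known for axon guidance, stood apart at 13.80 and 13.89 TPM. Fzd1, next in order, had 3.81 and 3.68 TPM, so Fzd3 was 3.70 times as high, with a log2 ratio of 1.89 ± 0.04 (SD, n = 2). Fzd2 (2.75 and 3.59 TPM), Fzd7 (2.72 and 2.61), Fzd4 (2.47 and 2.81), Fzd6 (2.09 and 2.88), Fzd9 (1.70 and 1.77) and Fzd8 (1.33 and 1.69) followed. No neighbours in this order below Fzd3 had separate intervals in both libraries. Genes farther apart in it could still be told apart, as Fzd1 lay wholly above Fzd8 by its intervals (3.31 to 4.09 against 1.101 to 1.49 TPM in replicate 1, and 3.21 to 3.96 against 1.43 to 1.86 in replicate 2). Fzd4 also serves as the receptor for norrin in vessels. Fzd5 (0.455 ± 0.0495 TPM) and Fzd10 (0.210 ± 0.0424) were below the minimum. Fzd6 over Fzd3 was -2.50 ± 0.32 on the log2 scale.

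Around these ligands and receptors, Wnt pathway genes from lists written for this tissue were mostly detected, where 58.0% of all nuclear protein-coding genes were. These and the later pathway lists were chosen with earlier results of these data known, so their counts describe the lists only. Of the co-receptors and other Wnt receptors 9 of 10 were detected, led by Lrp6 (21.3 ± 0.00707 TPM), the receptor-like kinase Ryk (17.3 ± 1.07) and Lrp4 (11.8 ± 0.0919). The acyl transferase Porcn, which attaches the lipid to Wnt proteins, stood at 44.95 ± 0.976 TPM and the Wnt carrier Wls at 9.72 ± 1.44. All 13 transducers were detected, with beta-catenin (Ctnnb1) at 205 ± 6.50 TPM, the kinase Csnk1a1 at 125 ± 3.16 and the kinase Gsk3a at 82.1 ± 2.33. Of the 75 members Fgf13 alone was above Gsk3a, and none reached Csnk1a1. Of the secreted antagonists only 4 of 11 were detected: Dkk3, a divergent relative of the Dkk inhibitors, reached 102.3 ± 5.12 TPM, Frzb 12.6 ± 0.778 and the Wnt deacylase Notum 2.04 ± 0.269, with Sfrp1 last at 1.185 ± 0.0636, a gene outside the 3 highest that was named after its value was seen. Dkk1, the classical Lrp5 and Lrp6 inhibitor, had 0 counts in both libraries, and 0.159 and 0.103 TPM in the second quantification.

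Of the Wnt agonists and turnover genes 8 of 11 were detected, led by the R-spondin receptor Lgr4 (11.4 ± 0.240 TPM), the norrin co-receptor Tspan12 (10.6 ± 1.15) and the ubiquitin ligase Znrf3 (9.35 ± 0.0990). The feedback targets that beta-catenin signalling is known to induce were present for 4 of 5 genes, with Apcdd1 at 13.1 ± 0.926 TPM, Axin2 at 12.4 ± 0.488 and Nkd1 at 4.03 ± 0.0990.

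The intracellular FGFs are also called FGF homologous factors, and Fgf13 and Fgf12 among them had the highest mean levels of all members. Fgf14 and Fgf11 lay below several receptors. In the second quantification Fgf13 still led, but Fgfr3 (70.9 TPM) and Fgfr1 (59.0) lay above Fgf12 (54.4). Fgf13 stood at 85.35 TPM in replicate 1 and 88.39 in replicate 2, above 95.8% of nuclear protein-coding genes (chrX:59062145-59568071, mm10, - strand). Fgf12 stood at 55.12 and 55.24 TPM, Fgf14 at 14.60 and 15.27 and Fgf11 at 13.11 and 10.93. All act on sodium channels, and FGF14 is known for its place at the axon initial segment. Fgf13 was 5.82 times and Fgf12 3.70 times as high as Fgf14, with log2 ratios of 2.54 ± 0.01 and 1.89 ± 0.04 (SD, n = 2), while Fgf11 over Fgf14 was -0.32 ± 0.23 and did not pass 3 SD.

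Fgf12, Fgf13 and Fgf14 start from alternative first coding exons, which give their proteins different amino ends. The exons of one kind, shared between the paralogs, and the alternatives of Fgf12 and Fgf14 are shown because the genes differed in which of them their transcripts used. Sequences are the coding parts from the GENCODE M21 transcripts (mm10), read on the - strand, 5′ to 3′. In the first 3 lines capitals mark bases identical at the same position in all 3 exons over their first 54 bases, and in the last 2 lines the start codon. The lines correspond to chr16:28444993-28445191, chrX:59133877-59134063, chr14:124192329-124192521, chr14:124676510-124676717 and chr16:28752834-28752846.
Fgf12-201: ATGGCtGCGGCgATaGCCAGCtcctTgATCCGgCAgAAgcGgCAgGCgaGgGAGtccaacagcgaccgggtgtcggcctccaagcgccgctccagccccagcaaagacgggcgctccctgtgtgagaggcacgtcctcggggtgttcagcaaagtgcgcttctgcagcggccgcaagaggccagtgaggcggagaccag
Fgf13-201: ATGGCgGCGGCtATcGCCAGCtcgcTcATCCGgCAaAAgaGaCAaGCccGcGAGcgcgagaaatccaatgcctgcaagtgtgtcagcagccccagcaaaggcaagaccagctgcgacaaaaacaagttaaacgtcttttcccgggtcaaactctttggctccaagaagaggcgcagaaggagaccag
Fgf14-201: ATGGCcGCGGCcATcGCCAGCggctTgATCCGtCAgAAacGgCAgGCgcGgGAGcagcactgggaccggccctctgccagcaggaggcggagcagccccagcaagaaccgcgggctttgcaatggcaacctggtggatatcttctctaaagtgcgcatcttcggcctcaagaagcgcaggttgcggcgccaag
Fgf14-202: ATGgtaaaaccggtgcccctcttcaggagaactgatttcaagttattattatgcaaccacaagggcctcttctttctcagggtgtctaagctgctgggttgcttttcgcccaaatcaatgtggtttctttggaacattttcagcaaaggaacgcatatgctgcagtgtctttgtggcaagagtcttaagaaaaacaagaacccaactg
Fgf12-205: ATGgagagcaaag

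Over those 54 bases 37 were identical in all 3 exons. Fgf13 was read almost wholly from this kind of exon: Fgf13-201, which encodes 245 residues, took 93.3% of the gene's TPM in replicate 1 and 92.5% in replicate 2. For Fgf14 the choice was the other one, as Fgf14-202, with 252 residues, took 93.8% and 92.3%, and Fgf14-201, with 247 residues and the shared kind of exon, took 6.16% and 7.73%. Fgf12-205, the 181-residue form that opens with only 13 coding bases in its first coding exon, took 47.8% and 52.2%, against 13.3% and 11.7% for the 243-residue Fgf12-201. Of the remaining Fgf12 transcripts, the processed transcript Fgf12-206 took 31.6% ± 0.886 (SD, n = 2).

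The direction of each of these contrasts was the same in the second quantification, with 64.9% ± 2.04 for Fgf13-201, 91.5% ± 0.299 for Fgf14-202 and 53.1% ± 2.55 for Fgf12-205. There the 666-base processed transcript Fgf13-207 took 27.3% ± 1.58 of Fgf13, against 0.720% ± 0.902 in the first table. Shares of reads rather than of TPM changed the order for Fgf12: Fgf12-206 led with 46.7% ± 0.177 of the reads, Fgf12-201 took 28.8% ± 1.84 and Fgf12-205, only 831 bases long, 20.95% ± 1.99. For Fgf11 both coding transcripts share their first coding exon, and Fgf11-202, with 225 residues, took 78.5% ± 2.88.

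**Figure D2:**
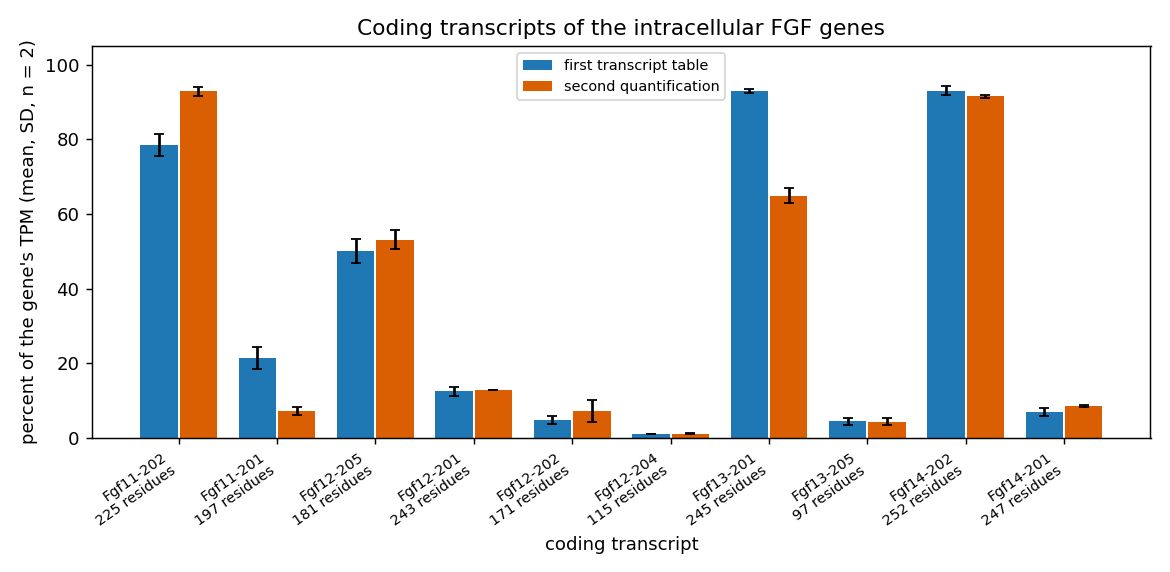
Bars give the percent of each gene's TPM taken by its coding transcripts of at least 1 percent, as the mean of the 2 libraries with the SD, in the first transcript table and in the second quantification; the protein length stands under each name. Fgf13-201 and Fgf14-202 exceed 90 percent in the first table, Fgf13-201 stands at 64.9 percent in the second quantification, and Fgf12-205 stands near 50 percent in both.

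Of the secreted FGFs, Fgf1, which binds every FGF receptor, was the highest at 13.95 and 15.42 TPM. Fgf9, a neuronal ligand with a preference for FGFR3 and IIIc receptor forms, stood at 7.63 and 6.66 TPM. Fgf10, a ligand of the IIIb form of FGFR2, stood at 5.50 and 5.32 TPM. Fgf1 lay above Fgf9 by separate intervals in both libraries, and none of the lower neighbours could be ordered in this way. For Fgf2 the interval itself (2.97 to 5.35 TPM in replicate 1) lay above the deposited TPM. Fgf2, the mitogen used to grow hippocampal stem cells in culture, was lower, at 2.74 and 3.01 TPM, so Fgf1 was 5.11 times as high (log2 ratio 2.35 ± 0.01; SD, n = 2).

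Fgf5 (2.31 and 1.69 TPM), Fgf18 (1.70 and 1.61) and Fgf22 (1.40 and 1.11), a ligand known for organising excitatory synapses in CA3, completed the detected secreted FGFs. The values of Fgf18 and Fgf22 rest on few reads, 36 and 36 for Fgf18 and 36 and 34 for Fgf22. Exons of Fgf22 overlap those of Rnf126 (34.27 and 34.50 TPM) on the opposite strand, and exons of Fgf2 those of Nudt6 (3.02 and 2.06 TPM). Whether the counting used strand is not stated, so reads of these partners cannot be told apart. Fgf16 stood at 0.57 and 0.43 TPM and Fgf20, whose exons overlap those of Micu3 (41.18 and 39.40 TPM) on the opposite strand, at 0.76 and 0.21. Fgf7 and Fgf17 averaged 0.185 TPM each, Fgf23 0.155 and Fgf3 0.0600. Fgf4, Fgf6, Fgf8, Fgf15 and Fgf21 were listed at 0 counts in both libraries. FGF15 and FGF21 are endocrine hormones of gut and liver, and FGF8 patterns the embryonic forebrain.

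Fgfr3 and Fgfr1 were the highest of the receptors and could not be ordered. Fgfr3, known in the brain as a receptor of astrocytes and stem cells, stood at 49.75 and 54.37 TPM (chr5:33721674-33737068, mm10, + strand). Fgfr1 stood at 50.22 and 51.29 TPM (chr8:25513654-25575718, + strand), and the log2 ratio of Fgfr3 to Fgfr1 was 0.04 ± 0.07 (SD, n = 2). The second quantification put Fgfr3 above Fgfr1, at 70.9 ± 5.51 against 59.0 ± 1.65 TPM, with a log2 ratio of 0.26 ± 0.07 past 3 SD. Fgfr2, known in the brain mainly from astrocytes and oligodendrocytes, was lower, at 23.36 and 19.34 TPM, and Fgfr1 was 2.39 times as high. Exons of Fgfr2 overlap those of Ctbp2 (24.11 and 17.24 TPM) on the same strand, and its expected counts (1242.14 and 1250.09) were not whole. Fgfr4 had 4 and 6 counts, or 0.06 and 0.14 TPM.

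The ligand preference of FGFR1 to FGFR3 depends on which of 2 neighbouring exons, IIIb or IIIc, encodes the later part of the third immunoglobulin-like domain. Among transcripts that hold either exon, those with IIIc took 97.0% of TPM in replicate 1 and 96.7% in replicate 2 for Fgfr1. For Fgfr2 they took 85.7% and 79.5%, and for Fgfr3 100% and 96.9%. Fgfr2 was thus the receptor with the largest IIIb share in both libraries of the first table, at 1.70 and 1.85 TPM of IIIb transcripts against 10.15 and 7.16 TPM of IIIc transcripts.

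For Fgfr3 the share depended on the table. In the second quantification IIIc took 68.9% and 69.1% of Fgfr3, below Fgfr2 with 80.9% and 77.8%. Counting only full-length coding transcripts, with at least 2000 coding bases, it took 96.6% and 92.5% of Fgfr3 there. Of the IIIb transcripts of Fgfr3 in that table, at 11.92 and 12.4 TPM, the full-length ones made up 0.944 and 2.18. The 668-base Fgfr3-213, which holds IIIb, took 15.0% ± 1.92 of the gene there and no reads in the first table. For Fgfr1 the IIIb transcripts were nearly all Fgfr1-208, a transcript annotated for nonsense-mediated decay that holds both exons and was counted with each. With full-length coding transcripts alone IIIc took 99.8% ± 0.213 of Fgfr1.

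**Figure D3:**
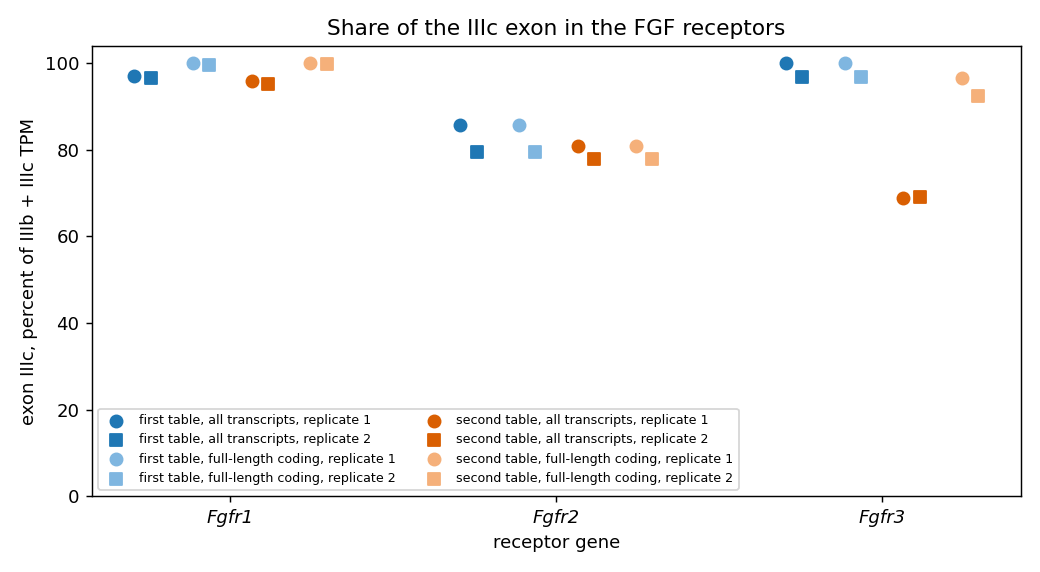
For each receptor the vertical axis gives the TPM of transcripts with exon IIIc as a percent of that of transcripts with IIIb or IIIc; circles are replicate 1 and squares replicate 2, and colours separate the 2 tables and all transcripts from full-length coding ones. Fgfr1 stays above 95 percent, Fgfr2 lies between 77.8 and 85.7 percent, and Fgfr3 drops from at least 92.5 percent to near 69.0 percent in the second table when short transcripts are counted.

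FGF pathway genes outside the family were detected in each list from co-receptor to target, beside 58.0% of all nuclear protein-coding genes. Of the co-receptors and binding proteins 11 of 14 were detected, led by the heparan sulfate proteoglycans Gpc1 (57.6 ± 0.997 TPM), Sdc3 (53.0 ± 2.89) and Sdc4 (44.5 ± 4.30). All 7 transducers were detected, led by the adaptor Grb2 (72.4 ± 1.68), Plcg1 (39.2 ± 1.31) and the phosphatase Ptpn11 (36.5 ± 0.891). All 12 feedback targets, which MAP kinase signalling induces and many of which restrain it, were detected, led by Spred1 (37.8 ± 0.368), Spred2 (35.6 ± 0.933) and the transcription factor Etv1 (35.4 ± 5.93).

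Of the genes named Bmp, the highest encodes no BMP ligand. Bmp1, at 21.80 and 22.56 TPM, is a secreted metalloprotease that trims procollagen and the BMP antagonist chordin. It held 71.3% and 72.4% of the family's summed TPM. Its leading transcript Bmp1-205 is annotated for nonsense-mediated decay and took 48.8% and 51.6% of the gene, against 39.9% and 40.9% for Bmp1-201, which encodes 991 residues. Without Bmp1 the remaining 10 genes summed to 8.76 and 8.59 TPM.

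Of these 10, 4 were detected and none could be placed above its neighbour by the intervals. Bmp6 stood at 2.13 and 2.38 TPM, Bmp7 at 2.13 and 2.24, Bmp4, a ligand linked to stem cell quiescence, at 2.22 and 1.26, and Bmp3 at 1.05 and 1.30. The log2 ratios of Bmp4 to Bmp7 (-0.39 ± 0.63; SD, n = 2) and of Bmp6 to Bmp7 (0.04 ± 0.06) did not pass 3 SD. Exons of Bmp6 overlap those of Txndc5 (19.48 and 17.43 TPM) on the opposite strand. Bmp2 (0.670 ± 0.156 TPM) and Bmp5 (0.475 ± 0.00707) were below the minimum, Bmp8a, Bmp8b and Bmp15 averaged under 0.1 TPM, and Bmp10, a ligand of the heart, had 0 counts in both libraries.

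The BMP receptors were well above their ligands and could be ordered in both libraries. The type II receptor Bmpr2 stood at 36.51 and 35.63 TPM (chr1:59763400-59879014, mm10, + strand), with 9855 and 10107 reads the largest read counts of all members. The deposited TPM of Bmpr2 lay above its own interval in both libraries (34.63 to 36.42 TPM in replicate 1 and 33.88 to 35.48 in replicate 2). The type I receptor Bmpr1a stood at 13.79 and 16.47 TPM and Bmpr1b at 8.73 and 8.20. Bmpr2 was 2.39 times as high as Bmpr1a (log2 ratio 1.26 ± 0.21; SD, n = 2) and Bmpr1a 1.78 times as high as Bmpr1b (0.83 ± 0.25). Of 8 related receptors 7 were detected, led by the activin receptors Acvr1b (33.6 ± 1.03 TPM), Acvr1 (19.3 ± 0.714), which also carries BMP signals, and Acvr2a (15.6 ± 0.311).

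Of 13 BMP and activin antagonists 11 were detected. Chordin (Chrd), a secreted BMP trap, was the highest at 37.50 and 33.98 TPM, above every BMP ligand, with Fstl1 at 14.1 ± 3.16 and Twsg1 at 11.2 ± 0.636. Noggin (Nog), which supports the dentate stem cell niche, stood at 3.27 ± 0.198 TPM. It was named here although it was not among the 3 highest, and was chosen after its value was seen. Of the SMADs 7 of 8 were detected, led by the shared partner Smad4 (25.035 ± 0.983), the TGF-beta effector Smad3 (19.7 ± 0.488) and Smad2 (12.1 ± 0.594). Of the targets 5 of 6 were detected, led by Id2 (36.9 ± 2.14), the SMAD repressor Skil (26.9 ± 2.23) and Id4 (20.2 ± 0.997).

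Among the TGF-beta ligands the order was Tgfb2, Tgfb3, Tgfb1, with separate intervals between neighbours in both libraries. Tgfb2 stood at 11.90 and 10.54 TPM, Tgfb3 at 5.53 and 6.18 and Tgfb1, the ligand best known from immune cells, at 2.82 and 2.70. Tgfb2 was 4.06 times as high as Tgfb1 (log2 ratio 2.02 ± 0.08; SD, n = 2) and Tgfb3 2.12 times (1.08 ± 0.16). The type I receptor Tgfbr1 stood at 10.66 and 9.55 TPM, the co-receptor betaglycan (Tgfbr3) at 7.91 and 8.36 and the type II receptor Tgfbr2 at 4.70 and 4.56. Tgfbr2 lay below both, at -1.12 ± 0.08 on the log2 scale against Tgfbr1, while Tgfbr3 over Tgfbr1 was -0.31 ± 0.17 and did not pass 3 SD. The latter ratio passed 3 SD in the second quantification, at -0.29 ± 0.01.

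TGF-betas are secreted in a latent form, and 7 of 9 genes of their storage and activation were detected. In the first table the integrin subunit Itgav led at 24.8 ± 2.92 TPM, followed by the latent TGF-beta binding protein Ltbp4 (23.4 ± 3.06) and the integrin subunit Itgb8 (12.4 ± 0.276), which together with Itgav frees TGF-beta from its latent complex. In the second quantification Ltbp4 led at 23.03 and 22.6 TPM, and Ltbp1, another latent TGF-beta binding protein, stood at 18.3 and 20.3 TPM against 2.88 and 2.46 in the first table, above Itgav with 16.9 and 17.3. For 11 of the 14 pathway lists the 3 highest genes were the same in both tables, and in the other lists Ltbp1, Nkd2 and Id3 took the places of Itgb8, Nkd1 and Id4. These 3 were named after their values were seen.

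**Figure D4:**
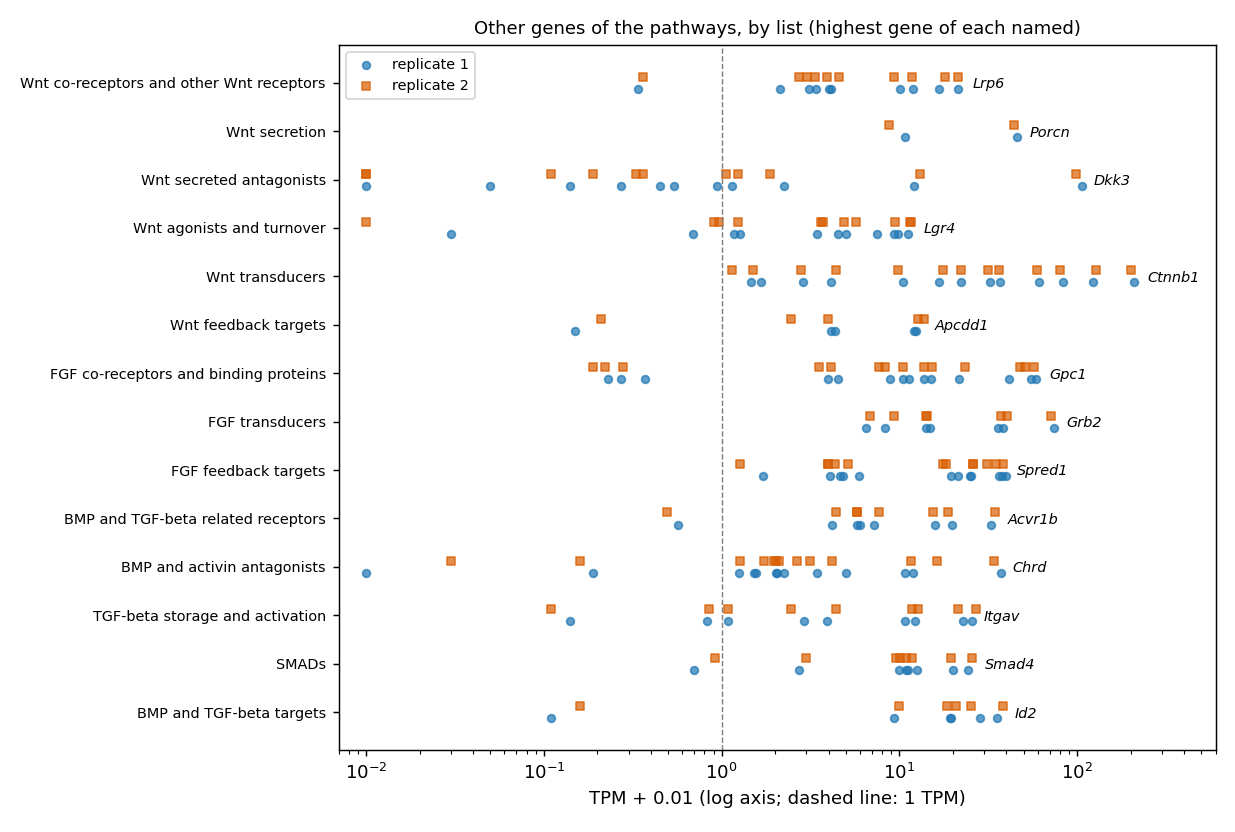
Each row is 1 list of other pathway genes, each symbol 1 gene, and the log axis is TPM with 0.01 added; circles are replicate 1, squares replicate 2 and the dashed line marks 1 TPM. All Wnt transducers, FGF transducers and FGF feedback targets lie right of the line. Of the secreted Wnt antagonists 7 of 11 do not pass it in both libraries. In all, 107 of the 129 listed genes were detected, beside 58.0% of all nuclear protein-coding genes.

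For all 21 member pairs whose ratios were taken within each library, 16 passed 3 SD and all 16 kept their sign in the second quantification. An SD from 2 values can be small or large by chance. Even an exact permutation test of 2 against 2 that ignores the pairing by library cannot give a two-sided p below 0.333. For this reason no p is reported.

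Most members with several annotated transcripts kept the same leading transcript. Of 20 members at a mean of 5 TPM or more, 19 had the same leader in both libraries, and 17 had that leader also in the second quantification. The exceptions were Wnt7b in both respects, and Fgfr3 and Fgfr2 in the second. For Wnt7b, Wnt7b-201 (356 residues) took 34.5% and Wnt7b-202 (349 residues) 34.1% in replicate 1, against 30.5% and 42.8% in replicate 2. The leader took at least 90% of the gene in 5 members, namely Fzd3, Fgf13, Fgf14, Fgf10 and Bmpr2, and the lowest share was 21.5% for Fgfr2-207. In 7 of the 20, transcripts not annotated as protein-coding took at least 20% of the TPM: Bmp1 (59.6% ± 0.679), Wnt7a (48.7% ± 5.36), Fgfr2 (34.4% ± 3.93), Fgf12 (31.6% ± 0.886), Tgfbr3 (29.7% ± 1.71), Fgfr3 (26.2% ± 0.340) and Fgfr1 (25.1% ± 0.656). The share of Wnt7a rests on 17.6 reads in replicate 1 and 22.9 in replicate 2. In the second quantification Wnt7a left this set, while Fgf13 (28.0% ± 1.95) and Tgfb2 (27.5% ± 2.98) entered it. The same shares were not taken over all genes, so these counts describe the 20 members only.

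Between the libraries no member stood apart. The log2 ratio of replicate 2 to replicate 1 was taken from counts for the 49 members averaging at least 1 CPM, and ranged from -0.37 to 0.47, so 0 of 49 reached 1 in size, against 0.529% of 15509 genes. The median size of the ratio was 0.12 for the members and 0.08 for all genes. The authors' TPM intervals did not overlap for 3 of the 49, against 4.38% of genes. Wnt4 (294 and 238 counts) and Fgf11 (809 and 697) were lower in replicate 2, where 2.12% of genes were, and Fzd2 (213 and 289) was higher, where 2.26% of genes were.

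Markers of some cell types moved between the libraries. The summed level of 7 choroid plexus genes was 130.6 TPM in replicate 1 and 73.7 in replicate 2, of which Ttr made up 120.9 and 65.7. That of 3 blood genes was 225.6 and 407.7 TPM, and that of 6 dentate granule genes 186.7 and 219.9. Of these 6, 4 were higher in replicate 2 by separate intervals, while C1ql2 went from 35.28 to 33.63 TPM. Astrocyte genes summed to 938.05 and 1004.63 TPM, with 3 of 5 higher by separate intervals. Oligodendrocyte genes summed to 804.69 and 894.12 TPM, with 2 of 4 higher in this way. Of 6 neuronal genes 2 were lower in replicate 2 by separate intervals, Snap25 (873.66 and 828.33 TPM) and Slc17a7 (541.78 and 524.28). Endothelial Cldn5 was also lower (21.23 and 16.26 TPM), and Fibcd1 of CA1 neurons was higher (40.05 and 43). Of all genes averaging at least 1 CPM, 2.26% were higher and 2.12% lower by separate intervals. Leptomeningeal fibroblast genes split, with log2 count ratios of -0.57 for Dcn and 0.33 for Col1a2. No gene of these lists was at 0 in both libraries. Their part in the differences of Wnt4, Fgf11 and Fzd2 was not tested.

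For a few members the TPM and the counts disagreed between the libraries. Bmp4 had 34 counts in replicate 1 and 43 in replicate 2, but 2.22 and 1.26 TPM. In replicate 1, 4.63 reads were placed on its 258-base transcript Bmp4-204, worth 1.34 TPM, and its effective length in the gene table was 704 bases, against 1505 in replicate 2. Fzd6 had 169 and 176 counts but 2.09 and 2.88 TPM. Of the 42 detected members these 2 differed by more than 0.3 between their log2 ratios of TPM and of counts, and the median difference in size was 0.02.

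**Figure D5:**
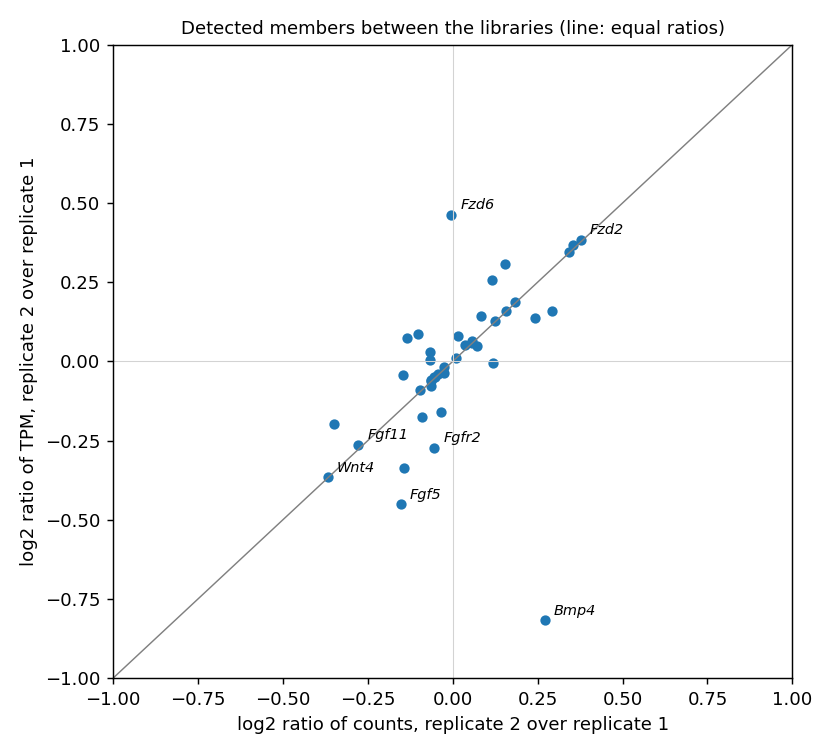
Each point is 1 of the 42 detected members; the horizontal axis is the log2 ratio of counts and the vertical axis that of TPM, replicate 2 over replicate 1, and the line marks equal ratios. All points lie within 1 on both axes, most lie on the line, and Bmp4 (0.27 by counts, -0.82 by TPM) and Fzd6 (-0.00 by counts, 0.46 by TPM) lie farthest from it.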

How the data were processed

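Total RNA of mouse hippocampus was measured in 2 libraries of 1 group, on the mm10 assembly per the labels. All 55536 gene identifiers of the tables, with their versions, matched the GENCODE M21 annotation, which gave names and coordinates. The aligner, the counter and its use of strand are not stated in these sources. The authors deposited gene and transcript tables of expected counts and TPM, which per the file headers have the column layout of RSEM. The authors' gene tables also give, per the file headers, a pair of scores for each gene, the bounds of an interval on TPM at a level they do not state. A further transcript table of each library holds estimated counts and TPM as deposited, in the layout of kallisto. It was summed by gene, rescaled to the same nuclear protein-coding TPM total and called the second quantification. Spike-in RNAs took 0.378% and 0.368% of the counts.

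Counts were rounded for TMM factors with edgeR 4.0.16 (limma 3.58.1, R 4.3.3). Ratios between libraries used counts plus 0.5 for genes averaging at least 1 CPM and were called apart at a log2 size of 1. Levels are means ± SD of 2 libraries, and with 1 group there was no test between conditions. Alternatives were DESeq2 1.42.0 size factors, other minimums and pseudocounts, leaving out each library, and the second quantification. The ratio script was tested on simulated data with 15486 genes: it recovered 98% of 200 genes given a log2 shift of 1.5, with 5 false calls. The shift lay past the threshold of 1 and the simulated spread was set beforehand. The outcome checks the script and does not give the error rate in the real libraries. Sample columns left unused numbered 0.

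Named were, per family, the 5 highest and all detected members, those at 0 counts, those with separate intervals, and pair and transcript members, and of each pathway list the 3 highest and those at 0. The members and lists were chosen with earlier results of these data known. Python 3.11.15, numpy 2.4.6, pandas 2.3.3, matplotlib 3.10.9 and biopython 1.88 were used. The sequences of the receptor exons are not reported here.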

Additional observations from a re-analysis of the deposited data

Results flagged for a closer look

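Members listed at 0 in the gene tables received reads in the second quantification, which enters the comparisons only as an alternative. Fgf8 held 7.02 estimated counts in replicate 1 and 10.01 in replicate 2, Fgf6 held 4.07 and 6.17, and Fgf15 held 5.34 and 4.35, all above the 3 counts that a count of 0 allows. The lower bound of the authors' TPM interval lay above 0 for all 8 members at 0 counts, so it is no sign of reads. It was largest for Fgf8 (0.105 and 0.0980 TPM) and Fgf15 (0.0556 and 0.0583). Wnt1, Wnt8a, Fgf4, Fgf21 and Bmp10 were at 0 estimated counts in the second quantification too. The cause was not tested.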

How the results depend on the processing

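Alternatives left most results in place. The count of detected members was 46 at a minimum of 0.5 TPM, 34 at 2 TPM and 43 in the second quantification. There Wnt10a and Wnt11 entered and Bmp4 was lost. The count was 42 and 43 with 1 library left out. It was 41 without transcripts under 400 bases, where Bmp4 was lost too. The median level of the 75 members was 1.66 TPM, and moved to 1.48 in the second quantification and to 1.51 without the short transcripts. Family sums moved in the second quantification by more than their SD, to 36.9 TPM for Wnt ligands, 28.7 for Frizzled receptors, 179.8 for intracellular FGFs, 149 for FGF receptors, 28.0 for BMP ligands, 57.0 for BMP receptors, 20.9 for TGF-beta ligands and 21.7 for TGF-beta receptors. The secreted FGFs did not. Of the 42 detected members 26 moved by more than their SD in it. Wnt7a (to 4.82 TPM) moved by over 1.5 times, as did Bmp4 (to 1.11), the latter within its SD. No member stood apart under 6 of the 7 other settings for the ratio between libraries. Without a filter on low counts 5 of 75 did, against 10.2% of all genes, each with at most 8 counts. Of 21 pairs, 17 passed 3 SD in the second quantification and 16 with 0.1 TPM added. Leading transcripts stayed the same for 18 of 20 genes by counts. The IIIc share by counts was 98.5% for Fgfr1 and 87.0% for Fgfr2. In the second quantification it was 95.5% for Fgfr1 and 69.0% for Fgfr3, and with full-length coding transcripts 99.8% for Fgfr1. Leaving out short transcripts, TPM in place of count ratios, and all alternatives for the IIIc share were chosen after seeing the data. Pair ratios have no SD with 1 library left out.

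No paired analysis was possible because there is only 1 group. The cause of the moves was not tested beyond the short transcripts named above. Most members under 1 TPM rest on few reads, and the spread rests on 2 libraries.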

Other observations

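Several members lie next to each other in the genome, and their levels were not alike in all of these pairs. Wnt9a (1.305 ± 0.233 TPM; SD, n = 2) lies 16.2 kb from Wnt3a (0.0250 ± 0.0354), and Wnt10a (1.14 ± 0.212) lies 6.19 kb from Wnt6 (0.390 ± 0.0707). Wnt3 (0.520 ± 0.0849) lies 24.3 kb from Wnt9b (0.180 ± 0.0566), and Wnt10b (0.155 ± 0.00707) lies 11.7 kb from Wnt1, which had 0 counts. Fgf3, Fgf4 and Fgf15 form a run on chromosome 7, where Fgf3 had 0 and 4 counts and the other two had 0. Fgf23 (0.155 ± 0.0354) lies 44.7 kb from Fgf6, which had 0 counts. None of these genes reached 2 TPM.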
